A study of Rattus norvegicus with 28 samples.

Results

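The comparison was of INS-1 cells carrying Med14 S983A after 8 h of forskolin (FSK) with untreated cells of the same genotype (CON). It rests on 4 of the 28 libraries in the series, 2 for each group, picked by genotype, treatment and hours in their titles. INS-1 cells come from a rat insulinoma and still secrete insulin. Both groups carried an alanine in place of the phosphorylatable serine named in S983A, put in by CRISPR with a repair template, so the mutation was shared by treated and control cells. The labels give no time or vehicle for CON, so hours in the medium may differ between the groups as well as FSK. Knock-in cells were grown from sorted single cells in 2 independent lines, and which line gave these libraries was not given in the labels, so features of 1 clone and of the substitution cannot be told apart. Before treatment the cells were moved to serum-free medium, and FSK was given at 10 µM. WT cells at CON and at 8 h of FSK, 2 libraries each, were used for comparison. So were Med14 S983A cells at 8 h of exendin-4 (Ex-4, 10 nM) and at 1 h and 16 h of FSK, also 2 libraries each. Nothing in the labels says that the 2 libraries of a group came from separate cultures. P-values therefore measure the spread within such groups, pooled over all 28 libraries, and this spread may be technical.

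FSK activates adenylyl cyclase directly and raises cAMP without a receptor. Cyclic AMP frees the catalytic subunits of protein kinase A, which phosphorylate CREB at its binding sites, the cAMP response elements (CRE), and start a fast wave of immediate early genes, many of which code for repressors or enzymes that end the signal. A signal that lasts for hours is followed by slower programmes for secretion, metabolism and protein folding. Med14 is a backbone subunit of Mediator, the complex that joins transcription factors at enhancers to RNA polymerase II, and the question put to these libraries is how cells without the phosphorylatable serine respond to a long cAMP signal.

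The libraries held 47243190 and 46397570 fragments in CON and 50926052 and 92635979 at 8 h of FSK, the last being the deepest of the series, where the other libraries held up to 57231981. A level of at least 1 TPM (transcripts relative to all transcripts, corrected for length) was reached by 10172 and 10176 genes in CON and by 9827 and 9816 genes at 8 h of FSK. Pearson r across genes between replicates was 0.998 in CON and 0.999 at 8 h of FSK. ERCC spike-ins, synthetic RNAs added in equal amount to each RNA sample, took 0.827% ± 0.0122 (SD, n = 2) of fragments in CON against 0.858% ± 0.0718 (SD, n = 2) after FSK, a difference within the spread of the treated libraries. Of 9 beta cell markers in the table all were expressed, with a summed level of 76199 to 84733 TPM in CON and 80890 to 83816 TPM at 8 h of FSK, most of it from Ins1 and Ins2. Of the 9, 8 were lower in both treated libraries than in both controls, and 1, Ins1, was higher. Among all 10275 genes averaging at least 1 TPM over the series, 61.1% were lower in this way and 29.6% higher. Of alpha cell markers, Gcg is described below and the factor Irx2 was at 0 in all 4 libraries. Sums of delta, pancreatic polypeptide, acinar, macrophage and endothelial markers stayed under 1 TPM in every library, and sums of duct and fibroblast markers reached 1.25 and 3.10 TPM.

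Messenger RNA was reshaped broadly. With limma on log2(TPM + 1), 1188 of 10275 genes were higher (11.6%) and 3550 lower (34.5%) at 8 h of FSK, together 46.1%. A call needed a Benjamini-Hochberg p below 0.05 together with more than 1.5-fold change. Both treated libraries lay above both control libraries for 3042 genes (29.6%) and below both for 6273 (61.1%). This balance depended on scaling. The median log2 change of all genes was −0.28 in TPM, 0.06 with each library centred on its median and −0.37 with scaling on the ERCC counts. Median-centred values gave 2225 higher (21.7%) and 2207 lower genes (21.5%), together 43.1%. ERCC-scaled values gave 994 higher (9.67%) and 3957 lower genes (38.5%), together 48.2%. All 1188 higher genes were also higher after median-centring and all 3550 lower genes were also lower with ERCC scaling, so that 994 higher and 2207 lower genes passed under the 3 scalings. Changes below are log2 differences in TPM, and so are relative to the all-gene median of −0.28. Values on this scale understate the change of genes near or under 1 TPM. A fixed mass of total RNA entered each library. TPM values are relative to all transcripts and ERCC-scaled values to the RNA put in, so neither measures RNA per cell. In bulk RNA, fewer cells of a type and less RNA per cell cannot be told apart.

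**Figure D1:**
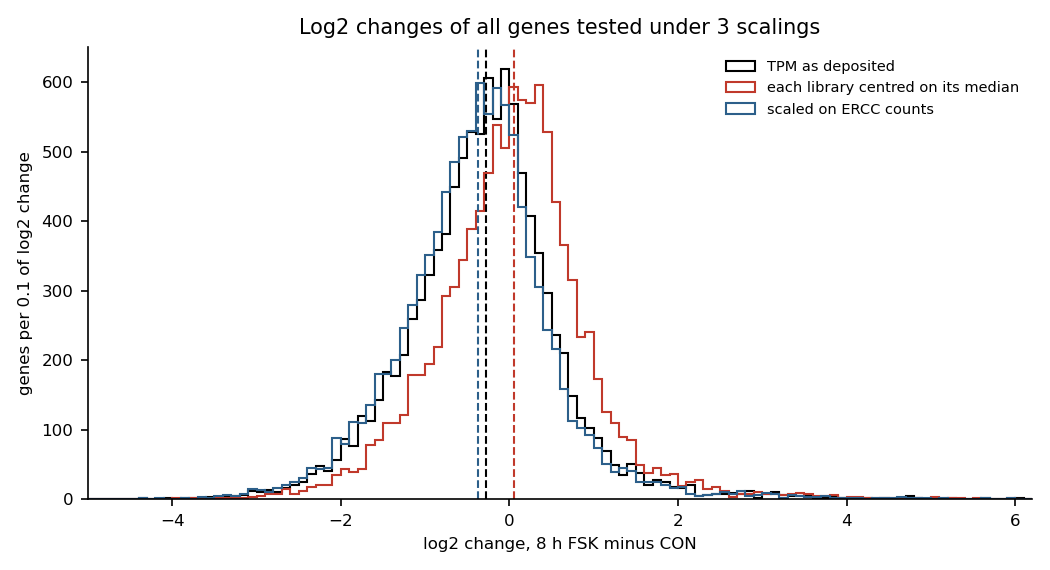
Number of genes (y axis, per 0.1 of log2 change) by log2 change at 8 h of FSK against CON in Med14 S983A cells (x axis), over the 10275 genes tested, for TPM as deposited, libraries centred on their median and libraries scaled on the ERCC counts. Dashed lines mark the medians of −0.28, 0.06 and −0.37, and the 3 outlines have the same form shifted along the axis.

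The largest rise was in Fst, which codes for follistatin, a secreted binder of activins (NM_012561, rn6 chromosome 2, 46537589 to 46544452). Its levels were 1.17 and 0.956 TPM in CON and 132 and 132 TPM at 8 h of FSK, and its log2 change was 6.01 (SE 0.0862, adjusted p from limma 2.8e-26). The cell cycle regulator cyclin D1, Ccnd1 (NM_171992, rn6 chromosome 1, 218090750 to 218100272), was close to silent in control cells, at 0.071 and 0.086 TPM in CON and 54.3 and 51.99 TPM at 8 h of FSK. Its control values rested on 7 and 9 fragments, and its log2 change of 5.65 (SE 0.0829) therefore understates the ratio. Crem, whose inducible promoter gives the repressor ICER, a brake on CREB targets, went from 5.48 and 3.97 TPM to 209 and 208 TPM (log2 change 5.20, SE 0.0814). Tac1, the precursor of substance P, had 8.52 and 7.75 TPM in CON and 299.7 and 299.7 TPM at 8 h of FSK. The granin-like secretory peptide precursor Vgf had 51.9 and 59.4 TPM in CON and 1584 and 1529.9 TPM at 8 h of FSK, which put it among the abundant transcripts of the treated cells. The imprinted gene Mest reached 1449 and 1334 TPM from 50.1 and 50.9 TPM. In each of these genes the 2 treated libraries were close to each other. They lay far above both controls, as the choice by size of rise implies.

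The other genes among the 15 largest rises were the receptor tyrosine kinases Epha2 (4.87) and Ephb3 (4.47), the kinase Sik1 (4.87), the AP-1 subunit Fosl2 (4.74), the hormone stanniocalcin Stc1 (4.68), the pseudokinase Trib3 (4.49), the gut peptide Cck (4.15), the helix-loop-helix inhibitor Id4 (4.02) and the vesicle protein Sv2c (3.98). The 15 log2 changes lay between 3.98 and 6.01, with SEs of 0.051 to 0.154 and limma adjusted p of 3.7e-28 to 5.7e-18. All 15 were also called higher in WT cells at 8 h of FSK, where the response was smaller by the interaction test for 9 of them and larger for Sv2c.

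Among falls, Crp, the acute phase pentraxin, lost most (NM_017096, rn6 chromosome 13, 91080448 to 91081358). It had 37.4 and 34.4 TPM in CON and 1.04 and 0.677 TPM at 8 h of FSK, a log2 change of −4.32 (SE 0.116, adjusted p from limma 3.1e-21). Txnip, an arrestin-like protein that binds thioredoxin and lowers glucose uptake, had 55.9 and 52.9 TPM in CON and 3.04 and 2.88 TPM at 8 h of FSK (log2 change −3.81, SE 0.0843). The actin-bundling protein villin, Vil1, had 103 and 101 TPM in CON and 6.64 and 6.86 TPM at 8 h of FSK (log2 change −3.74, SE 0.0414). The treated and control libraries of these 3 genes were well apart, as their choice by size of fall implies. Rph3al, a Rab effector of granule exocytosis, went from 121 and 129.6 TPM to 9.996 and 10.6 TPM. The adenosine receptor Adora2b, which itself couples to cAMP, went from 25.3 and 26.4 TPM to 1.99 and 1.76 TPM. The remaining members of the 15 largest falls were Glb1l2, Phkg1 (a catalytic subunit of phosphorylase kinase), the ephrin Efnb3, the transcription factor Dmrta1, Olfml2b, the adaptor Shc2, the cobalamin-processing protein Mmachc, Slc44a3, Cabp7 and the BBSome subunit Ttc8. The 15 falls lay between −4.32 and −3.22, with limma adjusted p of 3.7e-28 to 3.1e-21, and all 15 were also called lower in WT cells.

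**Figure D2:**
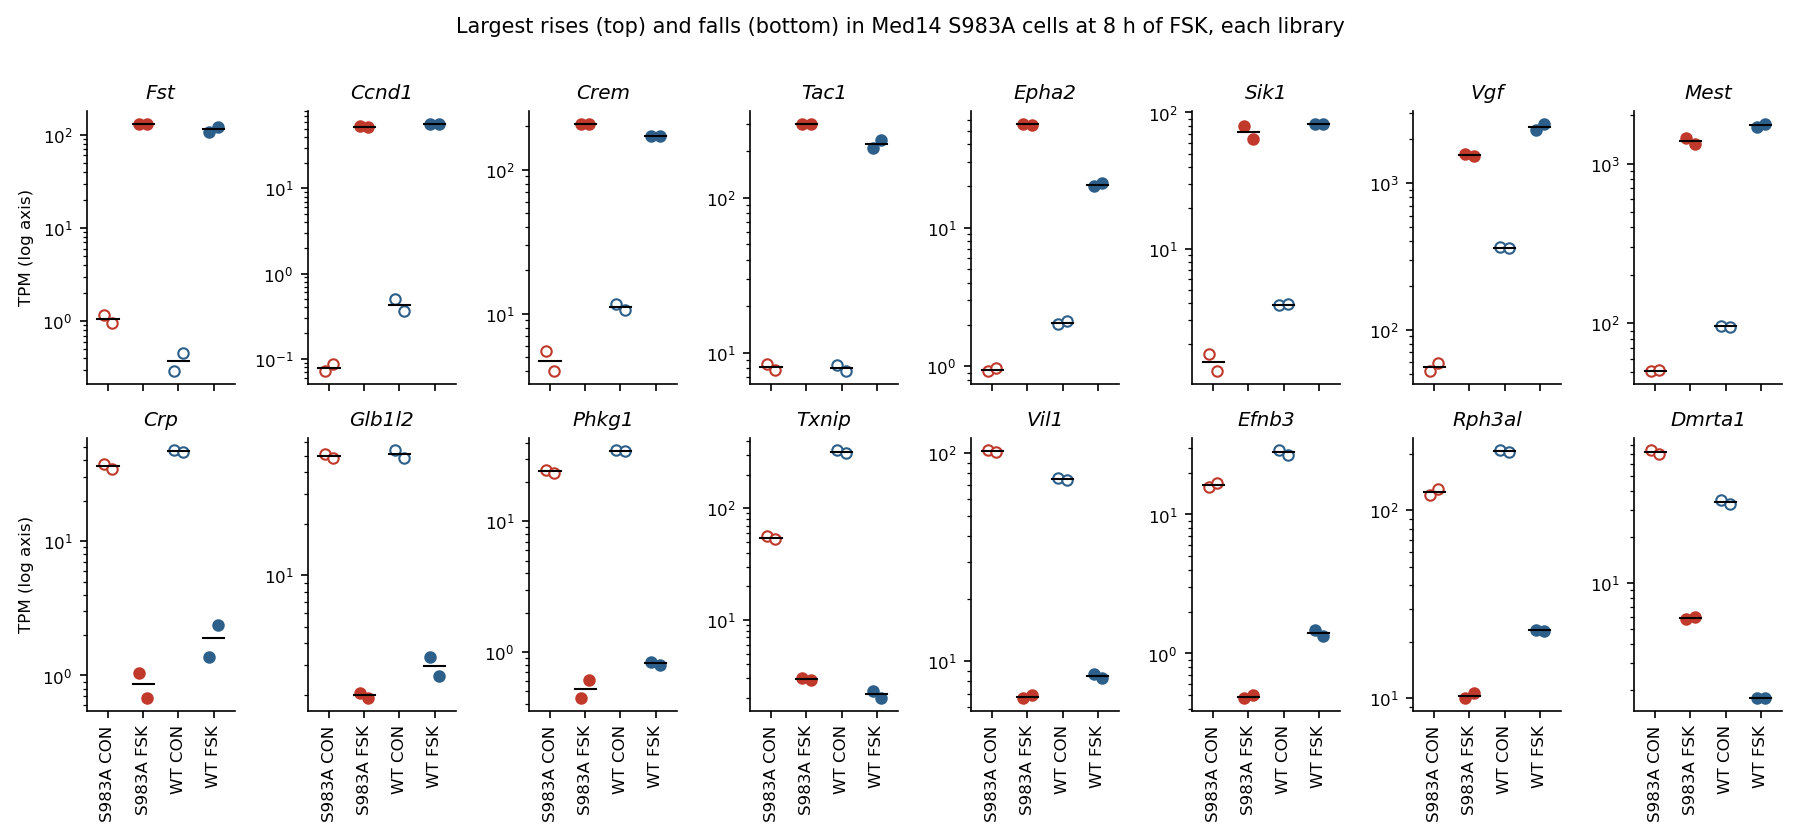
TPM on a log axis in every library (points, with a bar at the group mean) for the 8 largest rises (top row) and the 8 largest falls (bottom row) in Med14 S983A cells (red) beside WT cells (blue), open for CON and filled for 8 h of FSK. The Med14 S983A libraries do not overlap in any panel, which follows from picking genes by size of change on these libraries. Txnip starts at 54.4 TPM in Med14 S983A and 321 TPM in WT control cells.

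Promoter sequence was set beside the calls. RefSeq promoters of build GRCr8, 250 bases before to 50 after the start of a gene, were matched for 8421 of the 10275 genes. They were searched on both strands for the full palindromic CRE, TGACGTCA, for its core TGACG, which the full site contains, for the AP-1 site TGANTCA, and for the ER stress response element (ERSE). The full CRE lay in 46 of 971 promoters of higher genes (4.74%), 69 of 2873 of lower genes (2.40%) and 287 of 8421 of all tested genes (3.41%), while 1.83% of all 33469 promoters in the table held it. The core was in 41.2% of promoters of higher genes, 27.4% of lower genes and 33.7% of all tested genes. For the AP-1 site the shares were 6.39%, 4.003% and 4.49%, and 7.33% over the whole table. These are counts of letters in a window and name no bound site. Windows around the full CRE (in capitals) are shown for genes described here, chosen to let the site be compared across a secretory peptide, a neuropeptide, a coactivator, a phosphatase of the feedback loop, a stress phosphatase subunit and a receptor. They are GRCr8, 5′ to 3′ on the strand of the gene.
Vgf, chr12:25277077-25277136, minus strand: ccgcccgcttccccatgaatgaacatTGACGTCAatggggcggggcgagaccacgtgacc
Cartpt, chr2:32991344-32991403, minus strand: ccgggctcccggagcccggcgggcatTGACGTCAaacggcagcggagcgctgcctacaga
Ppargc1a, chr14:63634101-63634160, plus strand: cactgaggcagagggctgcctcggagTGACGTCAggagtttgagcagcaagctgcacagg
Dusp1, chr10:17184703-17184762, plus strand: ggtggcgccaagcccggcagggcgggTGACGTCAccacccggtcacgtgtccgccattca
Ppp1r15a, chr1:105139629-105139688, minus strand: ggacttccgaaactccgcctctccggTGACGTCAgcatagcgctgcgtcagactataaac
Epha2, chr5:158888551-158888610, plus strand: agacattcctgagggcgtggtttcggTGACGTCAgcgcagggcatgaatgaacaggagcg

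Gene lists below are counted in TPM and read against the all-gene shares of 11.6% higher and 34.5% lower (21.7% and 21.5% after median-centring), and a list near these shares is not set apart by its count. The genes that carry the cAMP signal itself come first. Immediate early genes of the AP-1 family were still raised after 8 h, as 7 of 9 tested members were higher and 0 lower, with a median log2 change of 2.85 against −0.28 over all genes. Fosl2 had 1.35 and 1.57 TPM in CON and 65.6 and 63.9 TPM at 8 h of FSK. Fos had 0.993 and 0.958 TPM in CON and 24.1 and 19.7 TPM at 8 h of FSK (log2 change 3.53, SE 0.104), Junb rose by 2.85 and Atf3, a stress-induced repressor, by 3.11, while Jund (0.12) and Batf3 (−0.22) were not called. In the NR4A, Egr and Ier list, 7 of 8 tested members were higher and 1 lower. The orphan nuclear receptor Nr4a1 had 6.53 and 7.36 TPM in CON and 70.1 and 60.5 TPM at 8 h of FSK (log2 change 3.06, SE 0.0831) and Nr4a2 rose by 2.74. Ier5 was the member that fell (−1.07). Of the CREB family and its coactivators, Crem alone passed the test, and the other 5, among them Creb1 (−0.10), Crtc2 (−0.52) and Crebbp (−0.20), had log2 changes between −0.52 and −0.09 in TPM, with Crtc2 called lower under ERCC scaling.

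Among phosphodiesterases, which break down cAMP, 8 of 15 tested members were higher and 4 lower. Pde1c had 5.80 and 6.15 TPM in CON and 66.8 and 66.8 TPM at 8 h of FSK (log2 change 3.28, SE 0.0603), Pde10a had 7.71 and 7.85 TPM in CON and 79.8 and 71.2 TPM at 8 h of FSK (log2 change 3.12, SE 0.0858), and Pde4d and Pde4b rose by 2.66 and 2.04. In contrast Pde4c went from 18.7 and 18.9 TPM to 0.943 and 1.06 TPM (log2 change −3.31, SE 0.0965) and Pde1b fell by 2.38 on the log2 scale. Both tested salt-inducible kinases, which keep CREB coactivators out of the nucleus, were higher, Sik1 with 1.71 and 1.27 TPM in CON and 79.4 and 64.4 TPM at 8 h of FSK and Sik3 by 0.95. Of receptors, adenylyl cyclases and their partners, 0 of 11 tested members were higher and 6 lower (after median-centring 1 higher and 5 lower). The glucagon receptor Gcgr had 36.1 and 34.8 TPM in CON and 12.02 and 10.4 TPM at 8 h of FSK, the cyclase Adcy6 fell by 1.46 and the GIP receptor Gipr by 1.08 on the log2 scale. The receptor for Ex-4, Glp1r, had 88.9 and 89.1 TPM in CON and 61.01 and 62.5 TPM at 8 h of FSK and was not called (−0.52).

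Subunits of protein kinase A moved in different directions. Prkacb, a catalytic subunit, had 91.7 and 87.1 TPM in CON and 17.6 and 17.2 TPM at 8 h of FSK (log2 change −2.30, SE 0.0634, adjusted p from limma 5.3e-21), while the regulatory subunit Prkar1a, which holds the catalytic subunits inactive, had 389 and 364 TPM in CON and 775 and 785 TPM at 8 h of FSK (log2 change 1.05, SE 0.0378). The other catalytic subunit, Prkaca, was not called (−0.38). Across the list 2 of 9 tested members were higher and 3 lower, and after median-centring 4 higher and 1 lower, which turned the balance. In the list of RGS, GRK and arrestin genes, which switch off G proteins and receptors, 2 of 16 tested members were higher and 6 lower, near the all-gene shares, and Rgs2 stood out with 9.49 and 7.93 TPM in CON and 88.7 and 78.99 TPM at 8 h of FSK (log2 change 3.13, SE 0.0805). The dual-specificity phosphatases with the Sprouty and Spred proteins, which restrain MAP kinases, gave 8 higher and 1 lower of 13. Spry1 (3.23), Dusp4 (2.81), Spry4 (1.96) and Dusp5 (1.85) rose most, and Dusp10 was the member lower (−0.89 in TPM, and not called after median-centring).

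Peptide hormone genes that are minor products of these cells rose together. Of 25 listed neuropeptides and gut hormones 9 reached the level for testing, and 7 of them were higher and 0 lower, with a median of 2.87. Their summed level went from 73.9 and 82.0 TPM in CON to 1263 and 1304 TPM at 8 h of FSK. Cck had 33.1 and 38.5 TPM in CON and 638 and 663 TPM at 8 h of FSK. Gcg, which codes for glucagon and GLP-1, had 6.09 and 6.55 TPM in CON and 102 and 110.3 TPM at 8 h of FSK (log2 change 3.87, SE 0.0682, adjusted p from limma 1.2e-24), while the alpha cell factor Irx2 stayed at 0 as given above. Gast (gastrin) had 7.37 and 8.15 TPM in CON and 123 and 119 TPM at 8 h of FSK, Cartpt had 10.9 and 11.6 TPM in CON and 82.2 and 95.3 TPM at 8 h of FSK, and Calca rose by 2.78 and Penk by 1.20. Pomc (−0.42) and Nmu (0.07) were not called. Because genes entered the test by their mean over all 28 libraries, silent members of the list do not count among the 9.

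The insulin genes moved apart. Ins1 had 38834 and 42395 TPM in CON and 61034 and 59014 TPM at 8 h of FSK, a log2 change of 0.56 (SE 0.0547, adjusted p from limma 6.3e-10) that stayed under the 1.5-fold limit in TPM and passed it after median-centring (0.90), without CON replicate 2 (0.63) and without FSK replicate 2 (0.59). Ins2 had 32620.4 and 37516 TPM in CON and 19393 and 18482 TPM at 8 h of FSK, a log2 change of −0.89 (SE 0.0567, adjusted p from limma 1.8e-13) that passed in TPM and not after median-centring (−0.55). Together they made up 7.57% ± 0.598 (SD, n = 2) of all TPM in CON against 7.90% ± 0.207 (SD, n = 2) at 8 h of FSK, a difference within the spread. Since the 2 genes are near-identical, the split of reads between them is uncertain and their sum is the firmer value. In WT control cells the value assigned to Ins2 was 2938 ± 75.1 TPM (SD, n = 2) against 35068 ± 3462 TPM (SD, n = 2) in Med14 S983A. This difference before treatment is subject to the same uncertain split. Of the proteins that process insulin, the amidating enzyme Pam rose from 537 to 2371 TPM (log2 change 2.14, SE 0.0454), and the prohormone convertase Pcsk1 had 173 and 152 TPM in CON and 59.4 and 58.4 TPM at 8 h of FSK (log2 change −1.45, SE 0.0597). The zinc transporter of the granule, Slc30a8, fell from 783 to 301 TPM and the Pcsk2 chaperone Scg5 from 473 to 276 TPM, the latter not called after median-centring. Pcsk2 (−0.31), Cpe (0.10) and Iapp (−0.25) were not called.

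Transcription factors of beta cell identity were lower as a group. 10 of 15 tested members fell and 2 rose, with a median of −1.003 (−0.67 after median-centring, with 3 higher and 9 lower). Neurod1, a factor needed for insulin gene transcription, had 215 and 221 TPM in CON and 23.1 and 23.04 TPM at 8 h of FSK (log2 change −3.19, SE 0.051, adjusted p from limma 2.2e-25), and Rfx6 went from 152 and 144 TPM to 38.6 and 34.4 TPM. Isl1 fell by 1.69, Nkx2-2 by 1.28, Nkx6-1 by 1.11 and Pdx1 by 0.73 on the log2 scale, the last not called after median-centring. Foxa1 (0.73) and St18 (0.59) were higher, St18 not with ERCC scaling, without CON replicate 2 (0.53) or without FSK replicate 1 (0.54), and Pax6 (−0.56) and Foxa2 (−0.09) were not called. Both treated libraries were below both controls for each of the 10 that fell, which were called lower on these same libraries. Of all genes tested, 61.1% lay below both controls in this way.

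Granule and release genes went both ways. In the granin list Vgf and Scg3 (0.69) were higher, Scg2 went from 1378 and 1335 TPM to 284 and 289.7 TPM (log2 change −2.24, SE 0.037), and Sytl4 fell by 1.48 on the log2 scale, while the abundant Chga had 4771 and 5135 TPM in CON and 4082 and 4205 TPM at 8 h of FSK and was not called (−0.26). The exocytosis machinery gave 7 higher and 10 lower of 23 (after median-centring 8 higher and 7 lower). The calcium sensors Syt4 and Syt5 rose from 36.1 to 269 TPM and from 101 to 393 TPM, and the vesicle primer Cadps went from 20.9 and 19.8 TPM to 2.11 and 1.58 TPM (log2 change −2.91, SE 0.0799). Of ion channels and pumps of stimulus-secretion coupling, 4 higher and 13 lower of 24 passed the test in TPM, and 4 higher and 4 lower after median-centring. The calcium pump Atp2a2 of the endoplasmic reticulum (ER) rose from 230.4 to 631 TPM, and the calcium channel subunits Cacna1a (−1.90) and Cacnb3 (−1.65) fell. The KATP channel genes Abcc8 (−0.64, called in TPM) and Kcnj11 (−0.55, not called) had similar changes on either side of the fold limit.

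Genes of protein folding in the ER rose broadly. Of 31 tested members 24 were higher and 1 lower, with a median of 1.09, and after median-centring and ERCC scaling 26 and 23 were higher. Their share of all TPM went from 1.53% and 1.44% in CON to 3.79% and 3.85% at 8 h of FSK. The main ER chaperone BiP, Hspa5 (NM_013083, rn6 chromosome 3, 13838304 to 13842763), had 1982 and 1816 TPM in CON and 8728 and 8666 TPM at 8 h of FSK (log2 change 2.20, SE 0.0458, adjusted p from limma 2.5e-23); it made up 0.19% of all TPM in CON and 0.87% after FSK. Hsp90b1, the ER form of the Hsp90 chaperone, had 1419 and 1286 TPM in CON and 4553 and 4707 TPM at 8 h of FSK. Dnajc3 (2.38), Creld2 (2.03), Hyou1 (1.87), Dnajb11 (1.77) and Dnajb9 (1.71) followed, and Sil1, an exchange factor of BiP, was the member that fell (−1.61).

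Sensors and effectors of the unfolded protein response (UPR) and of ER degradation rose as well, as 18 of 22 tested members were higher and 2 lower. Ddit3, which codes for the transcription factor CHOP, had 55.02 and 56.8 TPM in CON and 488 and 494 TPM at 8 h of FSK (log2 change 3.11, SE 0.0608, adjusted p from limma 7.2e-24). Ppp1r15a, the phosphatase subunit that restores translation, had 28.7 and 30.3 TPM in CON and 197 and 187 TPM at 8 h of FSK, and Herpud1, a factor of ER degradation, rose from 137 to 709 TPM. The 3 sensors Ern1 (2.03), Atf6 (1.32) and Eif2ak3 (1.13) were all higher, and Xbp1 rose by 0.69. Atf6b (−1.30) and Edem2 (−0.69, not called after median-centring) were lower.

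Every one of the 23 tested members of the list of ATF4 targets and tRNA synthetases was higher, under the 3 scalings alike, with a median of 1.70. Atf4 itself, the factor that drives amino acid uptake and synthesis when translation is limited, had 376 and 360.4 TPM in CON and 1993 and 1926 TPM at 8 h of FSK (log2 change 2.41, SE 0.0495, adjusted p from limma 1.9e-23). Slc7a11, the cystine transporter, went from 0.9 and 0.704 TPM to 33.003 and 31.9 TPM (log2 change 4.22, SE 0.0868), and Chac1, which degrades glutathione, from 12.3 and 12.7 TPM to 136 and 129 TPM. Asns (1.28), Psat1 (2.04), Mthfd2 (1.76), Slc3a2 (2.12) and the synthetases Aars (1.51), Eprs (1.70), Gars (0.92) and Cars (0.84) covered asparagine and serine synthesis, folate metabolism, amino acid transport and tRNA charging. In 12 of the 23 the rise exceeded that in WT cells by the interaction test (7.65% of all genes), and in none was it smaller. Psph, the last enzyme of serine synthesis, had 52.6 ± 1.53 TPM and 144 ± 2.11 TPM (SD, n = 2) in Med14 S983A against 131 ± 2.90 TPM and 87.6 ± 2.29 TPM (SD, n = 2) in WT.

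The ERSE was found in 7 of 26 promoters of the ER folding list and in 2 of 18 of the UPR list, against 15 of 8421 of all tested genes (0.178%) and 0.0657% of the whole table. Among higher genes 9 of 971 promoters held it, and among lower genes 2 of 2873. No promoter of the list of ATF4 targets held it. Windows with the match in capitals are shown for the chaperones with the largest levels or changes and for Xbp1, GRCr8, 5′ to 3′ on the strand of the gene. In Calr and Creld2 the element lies on the opposite strand.
Hspa5, chr3:38452947-38453017, plus strand: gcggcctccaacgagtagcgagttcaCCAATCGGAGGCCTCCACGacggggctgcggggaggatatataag
Hsp90b1, chr7:23012425-23012495, minus strand: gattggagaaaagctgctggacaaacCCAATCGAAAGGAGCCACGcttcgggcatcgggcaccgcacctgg
Calr, chr19:40213117-40213179, plus strand: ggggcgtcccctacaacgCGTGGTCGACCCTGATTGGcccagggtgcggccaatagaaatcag
Dnajc3, chr15:102432508-102432578, plus strand: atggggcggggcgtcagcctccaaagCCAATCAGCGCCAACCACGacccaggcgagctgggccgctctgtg
Creld2, chr7:121789213-121789283, plus strand: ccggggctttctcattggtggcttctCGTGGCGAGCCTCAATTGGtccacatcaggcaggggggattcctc
Xbp1, chr14:84604532-84604602, plus strand: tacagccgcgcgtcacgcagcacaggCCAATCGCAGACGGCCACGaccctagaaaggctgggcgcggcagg

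**Figure D3:**
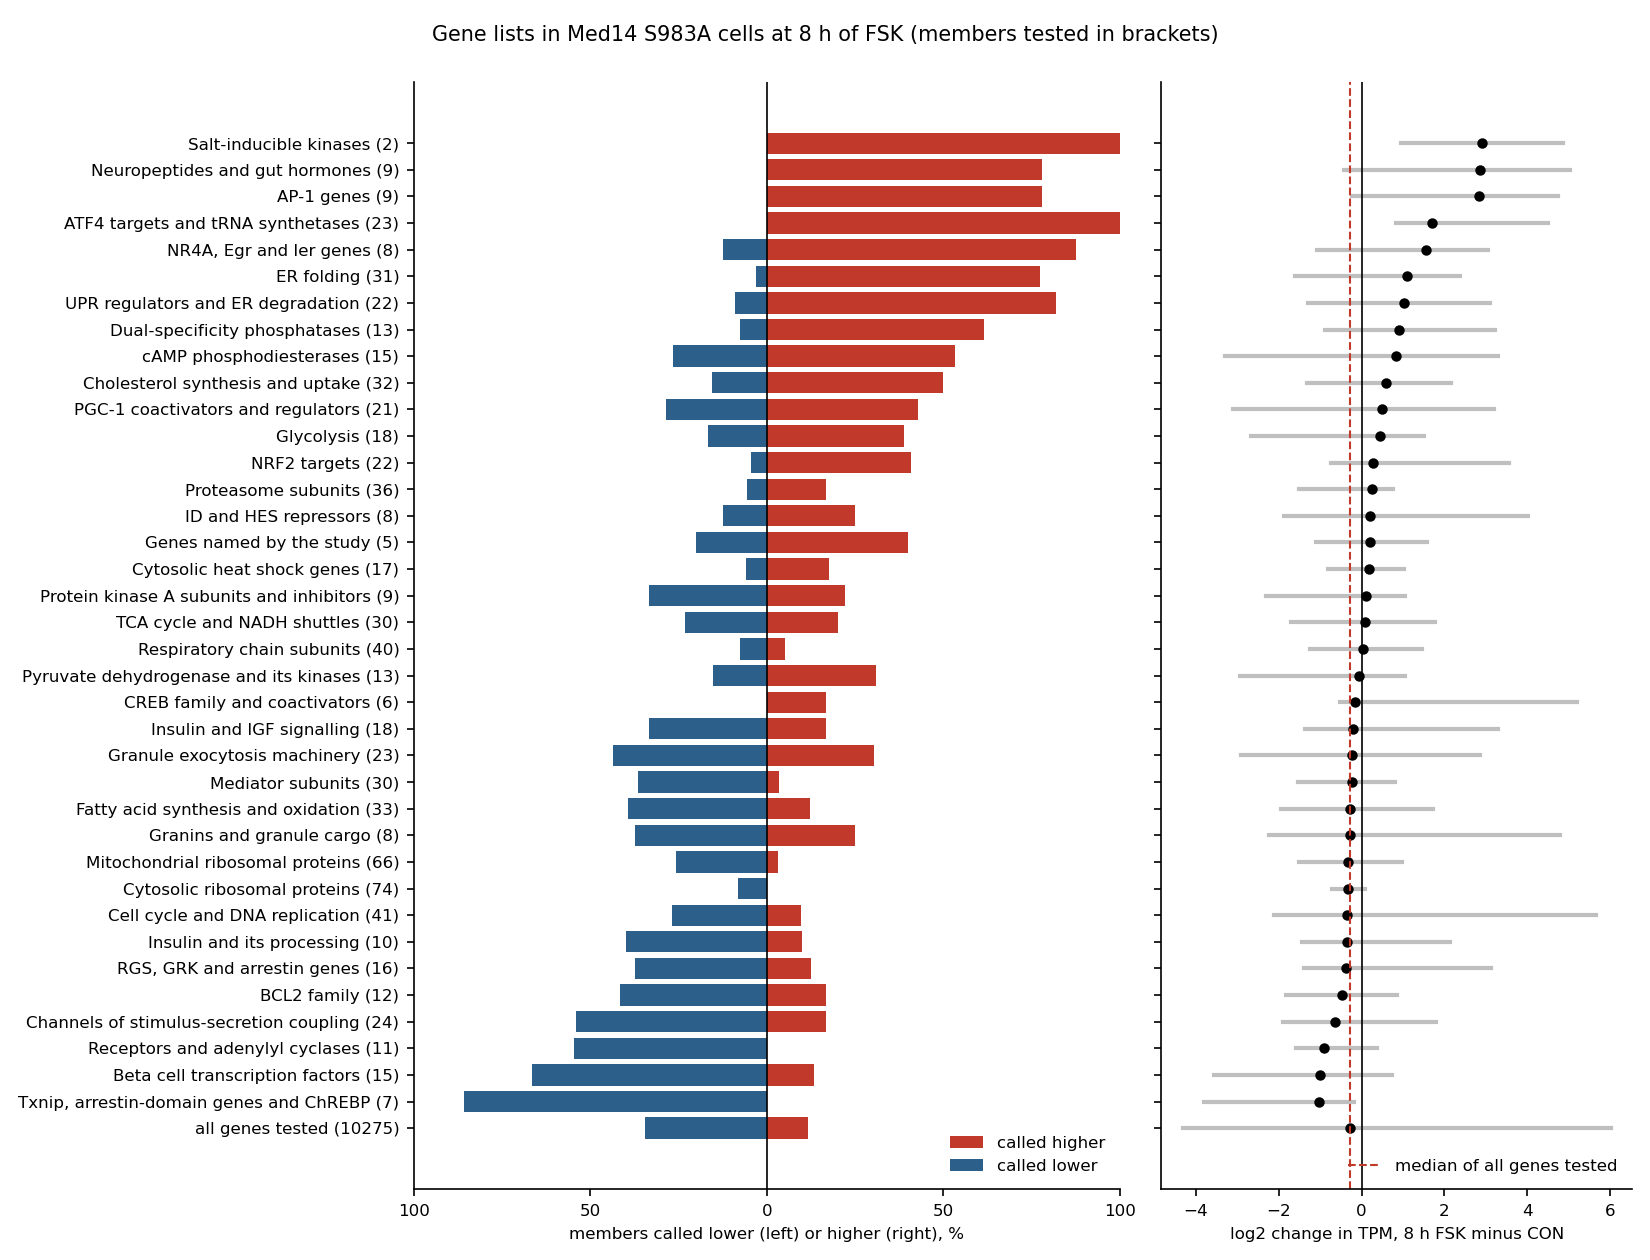
Left, share of the tested members of each gene list (number in brackets) called higher (right, red) or lower (left, blue) in TPM in Med14 S983A cells at 8 h of FSK; right, median (point) and range (line) of their log2 changes, with the all-gene median of −0.28 dashed. Lists at the top, such as the ATF4 targets with 23 of 23 higher, rise under each scaling, while lists with medians between −0.34 and 0.09 shift with the scaling, some of them across 0.

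Genes of cholesterol synthesis and uptake were raised, as 16 of 32 tested members were higher and 5 lower, with a median of 0.59. Msmo1 had 199.9 and 177 TPM in CON and 845 and 852 TPM at 8 h of FSK (log2 change 2.17, SE 0.0513), and Cyp51 rose from 138 to 486 TPM and Hmgcs1 from 85.02 to 287 TPM. The cholesterol exporter Abca1 fell (−1.32). The difference from WT was negative and called for 11 of the 32 members (6.21% of all genes) and positive for 2, with Insig1 at 1.60 here and 2.66 in WT. Fatty acid genes gave 4 higher and 13 lower of 33 in TPM, close to the all-gene shares of 11.6% and 34.5%, and 9 higher and 6 lower after median-centring. The dehydrogenase Acads fell from 42.9 to 10.4 TPM and Cpt2, of the carnitine shuttle, from 131 to 46.8 TPM, while the acyl-CoA synthetase Acsl5 rose from 54.9 to 184 TPM.

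In glucose metabolism Txnip and several relatives were lower. Of Txnip, the arrestin-domain genes and the glucose-sensing factor ChREBP, 0 of 7 tested members were higher and 6 lower in TPM, against 34.5% of all genes lower. After median-centring 4 were lower, as Arrdc1 (−0.30) and Arrdc3 (−0.54) were then not called. Arrdc4 had 94.5 and 88.01 TPM in CON and 11.7 and 11.3 TPM at 8 h of FSK and Mlxipl (ChREBP) had 209 and 218 TPM in CON and 55.3 and 50.8 TPM at 8 h of FSK. Glycolysis gave 7 higher and 3 lower of 18 (10 higher and 3 lower after median-centring). The glucose transporter Slc2a1 rose from 54.2 to 156 TPM and Aldoa from 1050.2 to 2413 TPM, while Pklr, the liver-type pyruvate kinase and a ChREBP target, fell from 103 to 15.3 TPM (log2 change −2.67, SE 0.0424). The glucose transporter Slc2a2 (−0.55) was not called. Pdk2, a kinase that inhibits pyruvate dehydrogenase, had 50.6 and 52.2 TPM in CON and 5.92 and 5.73 TPM at 8 h of FSK (log2 change −2.94, SE 0.0566, adjusted p from limma 5.5e-24) and Pdha1, a subunit of that enzyme, rose by 1.06. The TCA cycle and NADH shuttles gave 6 higher and 7 lower of 30, and after median-centring 10 higher and 3 lower, with Got1 up from 76.7 to 265 TPM and Idh2 down from 305 to 96.3 TPM. Respiratory chain subunits gave 2 higher and 3 lower of 40, and after median-centring 12 higher and 1 lower.

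The coactivator PGC-1α, Ppargc1a, a known CREB target of mitochondrial gene control, had 1.89 and 2.27 TPM in CON and 28.8 and 25.2 TPM at 8 h of FSK (log2 change 3.19, SE 0.165, adjusted p from limma 2.3e-15). Its partner Esrra rose from 27.2 to 78.4 TPM. In the same list lay genes of the circadian clock, and they split. The repressors Nr1d1 (24.9 and 26.3 TPM to 1.98 and 2.23 TPM), Nr1d2 (−2.36), the output factors Dbp (−1.94) and Tef (−2.25), and Per3 (−2.97) were lower. Per1 (1.58), Per2 (1.07), Cry2 (1.76), Arntl (1.000), Cry1 (0.72) and Clock (0.66) were higher. Over the list 9 of 21 tested members were higher and 6 lower.

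Among stress and growth lists, NRF2 targets gave 9 higher and 1 lower of 22, led by Hmox1, heme oxygenase, with 14.5 and 14.99 TPM in CON and 188 and 178 TPM at 8 h of FSK (log2 change 3.55, SE 0.0844) and by Srxn1 (2.43). Cytosolic heat shock genes gave 3 higher and 1 lower of 17, with Bag3 highest at 1.03 (6 higher and 0 lower after median-centring). Proteasome subunits gave 6 higher and 2 lower of 36 in TPM, 18 higher and 1 lower once values were median-centred. Scaling to ERCC left 3 calls upward and 2 downward. The BCL2 family gave 2 higher and 5 lower of 12 (3 higher and 3 lower after median-centring), with Mcl1 up (0.85) and Bok (−1.82), Bcl2 (−0.98), Bcl2l1 (−0.98) and Bax (−0.90, not called after median-centring) down. Cell cycle and DNA replication genes gave 4 higher and 11 lower of 41 (7 higher and 4 lower after median-centring). Beside Ccnd1, the inhibitor Cdkn1a rose from 6.14 to 33.2 TPM, and E2f1, Tk1 and Mycl fell by 1.43, 1.45 and 2.12 on the log2 scale. In insulin and IGF signalling, Igf1r had 12.004 and 12.6 TPM in CON and 135 and 127 TPM at 8 h of FSK (log2 change 3.31, SE 0.076), Irs2, a CREB target that promotes beta cell survival, rose from 30.1 to 128 TPM, and Akt1 fell from 184 to 71.5 TPM.

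The mutated gene, Med14 (NM_001191727, rn6 chromosome X, 10964035 to 11080894), had 19.6 and 20.3 TPM in CON and 30.03 and 27.3 TPM at 8 h of FSK, a change of 0.50 (SE 0.0671, adjusted p from limma 2.0e-07) under the 1.5-fold limit, which it passed after median-centring (0.84). The mutation alters the protein, so the level of its transcript does not check the genotype label. Of 30 tested Mediator subunits 1 was higher and 11 lower, and after median-centring 5 higher and 6 lower. Their shares of lower genes were close to those of all genes, 34.5% and 21.5%. The kinase Cdk8 was the subunit that rose (0.81), and its paralog Cdk19 (−1.50), Med12 (−1.53), Med25 (−1.44) and Med16 (−1.36) fell most. Cytosolic ribosomal proteins gave 0 higher and 6 lower of 74, a median of −0.33 in TPM, 0.01 when median-centred and −0.42 on the ERCC scale, so their direction rested on the scaling. Mitochondrial ribosomal proteins gave 2 higher and 17 lower of 66, with medians of −0.32, 0.01 and −0.42. Of the ID and HES repressors Id4 had 17.2 and 16.4 TPM in CON and 278 and 297 TPM at 8 h of FSK, Id3 rose by 1.08 and Hes6 fell by 1.88 on the log2 scale.

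Some genes crossed from near silence to clear expression. Taking under 0.5 TPM in both control libraries and at least 5 TPM in both treated ones, limits chosen after the values were seen, 17 genes went from the lower to the higher level and 10 the other way. Among the first were Thbs1 (thrombospondin, 0.155 and 0.154 TPM in CON and 15.02 and 12.8 TPM at 8 h of FSK), Nexn (14.98 and 16.6 TPM at 8 h of FSK), the cytokine Lif (13.4 and 12.4 TPM), Th, the rate-limiting enzyme of catecholamine synthesis (0.478 and 0.384 TPM in CON and 17.7 and 17.5 TPM at 8 h of FSK), and Nos1, neuronal nitric oxide synthase (0.048 and 0.084 TPM in CON and 13.1 and 10.1 TPM at 8 h of FSK). Nexn and Nos1 were at 0.14 and 0.091 TPM in WT cells at 8 h of FSK. The orphan receptor Gpr3, which raises cAMP by itself, reached 6.24 and 5.63 TPM. Among the 10 were Fev, a factor of serotonin-making cells (5.71 and 6.61 TPM in CON and 0.464 and 0.436 TPM at 8 h of FSK), the glutamate receptor Gria2 (5.75 and 5.47 TPM in CON and 0.338 and 0.351 TPM at 8 h of FSK) and Insrr, the insulin receptor-related receptor (5.81 and 5.58 TPM in CON and 0.114 and 0.183 TPM at 8 h of FSK).

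What the called genes shared beyond their direction was examined by transcript features. Median exon length was 2144.5 bases for higher, 2077 for lower and 2142 for all tested genes, and the share called higher was 10.5% in the shortest quintile of transcripts and 10.1% in the longest. The share called lower was 35.1% and 33.0% in the same quintiles. By level in CON, the share called lower was 36.7% in the lowest quintile, 41.3% in the next and 26.5% in the highest. The share called higher was 15.4% in the lowest quintile and 9.54% to 12.4% in the others. Control levels also enter the change, and genes close to silent in CON were tested only if expressed in other groups. A larger share higher in the lowest quintile is therefore favoured by the selection. By chromosome the share called higher ranged from 8.61% on chromosome 15 to 15.3% on chromosome 2, and the share called lower from 24.7% on chromosome 18 to 39.7% on chromosome X.

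Whether the genotypes, which may also differ as clones, responded alike was tested as the difference between the responses of Med14 S983A and WT cells. In WT cells 901 genes were higher (8.77%) and 3579 lower (34.8%) at 8 h of FSK, together 43.6%. The 2 responses share no library. Of the genes higher in Med14 S983A, 719 (60.5%) were also higher in WT, which is 79.8% of the WT genes, and of those lower 2849 (80.3%) were also lower in WT, which is 79.6% of the WT genes. The interaction term called 786 genes with a response above that in WT (7.65%) and 638 below it (6.21%), together 13.9%. The counts were 645 and 775 with median-centred and 561 and 929 with ERCC-scaled values, so which side was larger rested on the scaling. Opposite calls in the genotypes were seen for 12 genes higher in Med14 S983A and lower in WT, and for 6 the other way. Of these 18, 9 kept opposite calls after median-centring and 14 with ERCC scaling.

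Among genes with responses above WT, Ephb3 had 1.93 ± 0.362 TPM and 63.7 ± 1.85 TPM in Med14 S983A against 1.12 ± 0.0629 TPM and 2.22 ± 0.0502 TPM in WT (SD, n = 2), a difference in log2 response of 3.87 (SE 0.116). Slc16a1 had 9.68 ± 0.133 TPM and 74.2 ± 1.62 TPM in Med14 S983A against 7.35 ± 0.0566 TPM and 8.70 ± 0.477 TPM in WT (SD, n = 2), a difference in log2 response of 2.60 (SE 0.106). It codes for a lactate and pyruvate transporter. The response of the growth regulator Myc differed in sign, with 55.5 and 56.5 TPM in CON and 76.9 and 75.2 TPM at 8 h of FSK in Med14 S983A (0.43, not called in TPM, but called at 0.77 after median-centring, 0.71 with edgeR and 0.75 with DESeq2) against 69.4 and 70.5 TPM and 12.9 and 13.7 TPM in WT (−2.31). Ret, the receptor of GDNF, had 0.469 and 0.464 TPM in CON and 6.15 and 4.69 TPM at 8 h of FSK in Med14 S983A and 54.6 and 51.1 TPM and 15.3 and 17.4 TPM in WT. For some genes the genotypes already stood apart in control cells. Txnip fell to 2.96 TPM in Med14 S983A and 2.16 TPM in WT, but from 54.4 and 321 TPM. Pgm5 was at 0.377 and 0.223 TPM in Med14 S983A control cells and 83.3 and 87.5 TPM in WT. Its change in Med14 S983A was −0.27 in TPM, where levels under 1 TPM are compressed, and −1.59 and called lower with edgeR, on 30 and 17 fragments in CON and 7 and 12 at 8 h of FSK.

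Responses below WT on the log2(TPM + 1) scale were led by Plat, tissue plasminogen activator, with 0.058 and 0.015 TPM in CON and 2.14 and 2.06 TPM at 8 h of FSK in Med14 S983A and 0.955 and 1.08 TPM and 63.7 and 71.8 TPM in WT. Plat rose in both genotypes, with a difference in log2 response of −3.51 (SE 0.129). Its control levels in Med14 S983A were far under 1 TPM, where this scale compresses change, so the difference does not show a smaller fold change. Fosb had 0.228 ± 0 TPM and 2.24 ± 0.00919 TPM in Med14 S983A against 0.294 ± 0.0163 TPM and 23.8 ± 0.508 TPM in WT (SD, n = 2), a difference in log2 response of −2.86 (SE 0.119). Cebpd had 7.73 ± 0.355 TPM and 28.05 ± 1.48 TPM in Med14 S983A against 7.16 ± 0.65 TPM and 121 ± 2.47 TPM in WT (SD, n = 2), a difference in log2 response of −2.17 (SE 0.111). The integrin Itga3 was at 43.2 and 41.9 TPM in CON and 41.7 and 38.8 TPM at 8 h of FSK in Med14 S983A and rose from 65.3 and 61.9 TPM to 242 and 278 TPM in WT. Anxa10 fell in Med14 S983A from 409 to 58.2 TPM and had 781 and 569 TPM in WT. Pmp22 stayed at 0.1 TPM or less in all 4 Med14 S983A libraries, too low for a fold change to be judged, while WT cells went from 12.4 and 11.3 TPM to 75.6 and 81.7 TPM. Nr2f2 was at 1.06 TPM in CON against 15.4 TPM in WT. Of 5 genes that the study singled out, which are therefore no independent evidence, Plat and Kdr (1.48) were higher and Bcar1 (−1.10) lower here. On the same log2 scale the response was below that in WT for 3 of them, with the limit given above for Plat. By list, responses below WT were called for 4 of 15 beta cell transcription factors, against 6.21% of all genes. They were Neurod1 (−1.34), Isl1 (−1.12), Nkx2-2 (−0.78) and Foxa1 (−0.67), and 0 responded above WT.

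**Figure D4:**
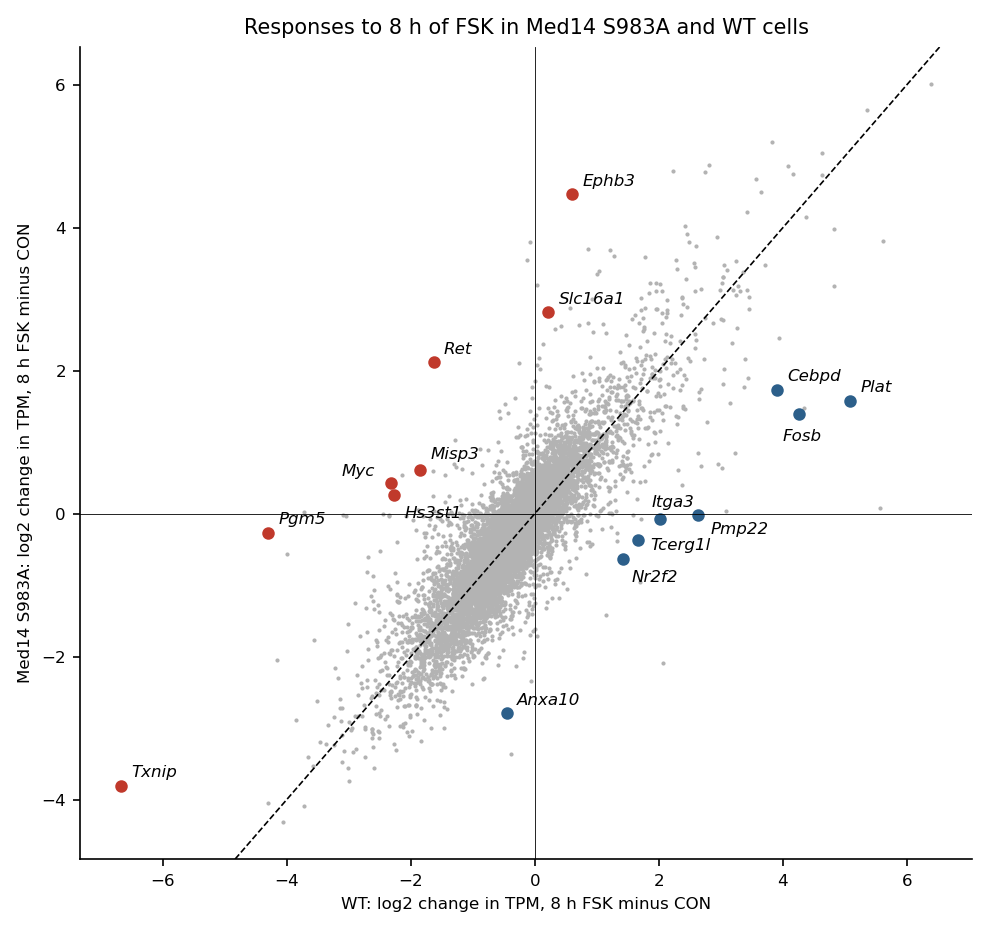
Log2 change in TPM at 8 h of FSK against CON in WT cells (x axis) and Med14 S983A cells (y axis) for the 10275 genes tested (grey), with the dashed line marking equal responses. The 8 genes with the largest called difference above WT (red) and below it (blue), among genes averaging at least 10 TPM, are named, and of these Txnip, which falls in both, lies farthest from 0 in WT.

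FSK and Ex-4 reach cAMP by different routes and were given at 10 µM and 10 nM, doses that cannot be matched, and their 8 h libraries share the CON group. In the direct contrast 690 genes were higher with FSK than with Ex-4 (6.72%) and 3057 lower (29.8%), together 36.5%. With median-centred values the counts were 1588 and 1684. Fst was at 3.54 and 3.72 TPM with Ex-4, against the 132 and 132 TPM with FSK given above. Ccnd1 was at 1.15 and 0.916 TPM, Tac1 at 25.5 and 27.05 TPM and Gprc5a, a retinoic acid-induced receptor, at 0.386 and 0.374 TPM with Ex-4, against 13.6 and 13.6 TPM with FSK. Genes lower with FSK than with Ex-4 were led by Crp (17.7 and 17.3 TPM with Ex-4), Glb1l2 (25.9 and 24.8 TPM), Vil1 (63.96 and 61.6 TPM), Mmachc (31.5 and 28.9 TPM) and Slc44a3 (40.7 and 41.1 TPM). In the ATF4 list 17 of 23 were higher with FSK than with Ex-4 and 0 lower, in the ER folding list 13 of 31 were higher and 1 lower, and of the beta cell transcription factors 9 of 15 were lower and 0 higher.

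By 16 h of FSK, 2212 genes were higher than at 8 h (21.5%) and 658 lower (6.4%), together 27.9%. The counts were 1410 and 1187 with median-centred and 4104 and 257 with ERCC-scaled values. Crem and Fosl2 were highest at 1 h. Crem was at 409.5 and 479.5 TPM at 1 h, 209 and 208 TPM at 8 h and 94.97 and 97.9 TPM at 16 h, and Fosl2 at 466 and 557 TPM, 65.6 and 63.9 TPM and 37.9 and 33.8 TPM. Hspa5 and Ddit3 were highest at 8 h, Hspa5 with 2185 and 2252 TPM at 1 h and 3500.2 and 3286 TPM at 16 h. Of UPR genes 9 of 22 were lower at 16 h than at 8 h and 1 higher. Several genes near their lowest at 8 h were near or above control levels at 16 h. Tspan17 went from 25.2 and 26.2 TPM in CON to 2.84 and 2.83 TPM at 8 h and 24.9 and 23.4 TPM at 16 h, and Rab26, a granule GTPase, from 36.999 and 36.1 TPM to 7.31 and 7.14 TPM and 67.8 and 69.8 TPM. The interferon-responsive Ifi27l2b climbed on to 471 and 502 TPM from 65.2 and 66.1 TPM at 8 h. In the other direction Tff3 was at 179 and 173 TPM and Enpp2 at 9.02 and 8.51 TPM at 16 h, against 865 and 858 TPM and 93.6 and 95.3 TPM at 8 h. Ins2 went on down to 6719 and 6724 TPM.

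**Figure D5:**
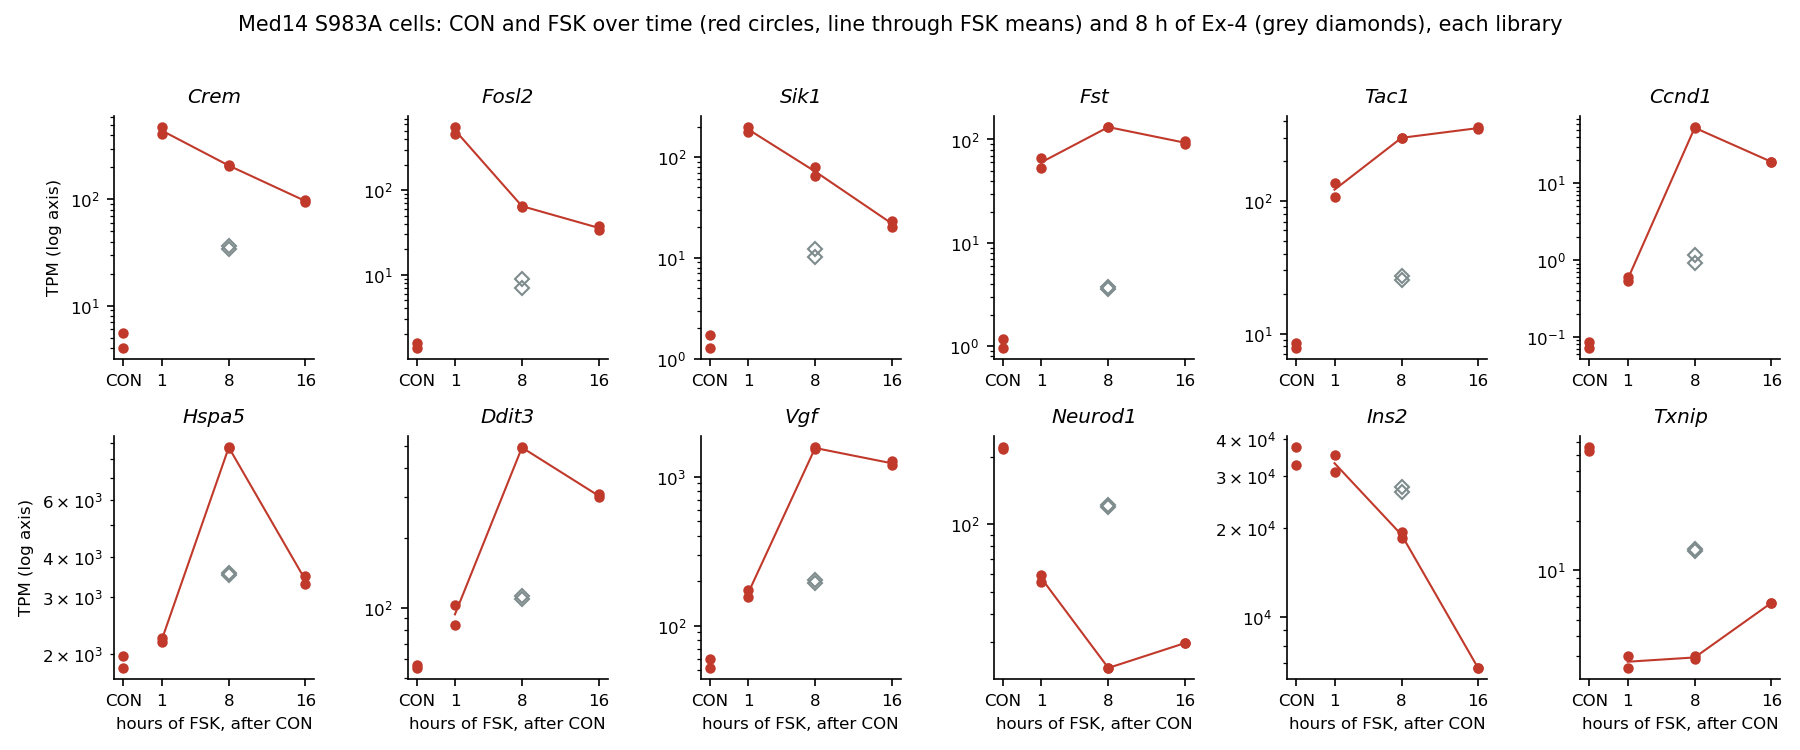
TPM on a log axis in every Med14 S983A library at CON and after 1, 8 and 16 h of FSK (red circles, with a line through the FSK means, hours to scale and CON set apart) and after 8 h of Ex-4 (grey diamonds) for 12 genes. Crem, Fosl2 and Sik1 are highest at 1 h, Hspa5, Ddit3 and Ccnd1 at 8 h, and each of the 12 genes lies farther from CON with FSK than with Ex-4 at 8 h.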

How the data were processed

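RNA from INS-1 cells carrying Med14 S983A or WT Med14 was sequenced by the authors as stranded paired-end libraries, 28 in 14 groups of 2, of which 4 make the main comparison. They aligned reads with STAR 2.5.3a to rn6 with the ERCC sequences and deposited TPM values per RefSeq transcript from HOMER 4.11.1, with exon lengths, and counts of reads per ERCC sequence, made with QoRTs. The authors' own gene testing used DESeq2 1.24.0 with size factors from the spike-ins; its output was not used here. Multimapped copies and overlapping genes are not resolved by such values.

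From the table of 19223 lines, 92 ERCC lines were set aside and 1 transcript kept for each of 17455 symbols, that with the highest mean TPM over the 28 libraries. The 10275 genes averaging 1 TPM or more were fitted with limma 3.58.1 in R 4.3.3 on log2(TPM + 1), with 14 group means over all 28 libraries, 14 residual degrees of freedom and moderated variances with a trend. P-values were adjusted by Benjamini-Hochberg over all 10275 genes. The genotype difference was the interaction contrast of the same fit. Median-centred values subtract each library's median, and ERCC-scaled values set the ERCC total equal in each library, which carries over any error in the amount of spike-in added. Dividing TPM by the value of 1 read gave whole reads within 0.05 for 100% of 137444 values under 1000 reads, against 23.1% by chance, with 2 reads per fragment, so edgeR 4.0.16 and DESeq2 1.42.0 could be run on the recovered fragments as alternatives. Data were simulated for the main comparison with treated libraries drawn from the CON means and only 200 of 10275 genes changed, as many up as down. There limma recovered 100% of 100 genes changed 2-fold and 99% of 100 changed 3-fold, with 1 wrong call. Such data cannot gauge the error of the real calls, where 46.1% of genes passed and the counts moved with the scaling.

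Named genes are the 15 largest called rises and 15 falls and the 8 largest genotype differences each way, all at or above 10 TPM on average, the 5 largest each way against Ex-4 and for 16 h against 8 h, Med14, and members of 37 gene lists taken by size of change or level. Some further list members were named after their values were seen. The comparison, the lists and the tests were chosen with earlier results of these data known. Promoters are RefSeq sequences of GRCr8, while loci from the deposited table are rn6, and no coordinate was converted. Depth of 42551133 to 92635979 fragments per library bounds the precision of low values. SEs come from the spread pooled over the 14 groups of 2 libraries. A few list members are not reported here.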

Additional observations from a re-analysis of the deposited data

Results flagged for a closer look

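The responses of Med14 S983A and WT cells to 8 h of FSK differed most in 16 genes, by the interaction term of the limma fit. On the log2 scale the response was above that in WT for Pgm5 (4.03), Ephb3 (3.87), Ret (3.75), Txnip (2.87), Myc (2.75), Slc16a1 (2.60), Hs3st1 (2.52) and Misp3 (2.47). It was below that in WT for Plat (−3.51), Fosb (−2.86), Pmp22 (−2.65), Anxa10 (−2.33), Cebpd (−2.17), Itga3 (−2.09), Nr2f2 (−2.05) and Tcerg1l (−2.02). These genes are the extremes of a ranking on the same values. Control levels of Pgm5, Ret, Plat, Fosb and Pmp22 in Med14 S983A were under 1 TPM, where log2(TPM + 1) compresses change. Control levels in the genotypes are given with the comparison above, except for Hs3st1, Misp3 and Tcerg1l. Misp3 was at 13.4 TPM in Med14 S983A control cells and 101 TPM in WT. Groups of 2 libraries are too small for a check of single libraries that stand apart.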

How the results depend on the processing

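At 8 h of FSK against CON, median-centring gave 2225 genes higher and 2207 lower in place of 1188 and 3550, and moved the share of calls that were higher from 25.1% to 50.2%. The count tools on recovered fragments gave 2058 higher with edgeR and 2176 with DESeq2 under its own size factors. The response against Ex-4 gave 1588 higher and 1684 lower after median-centring, 1463 higher with edgeR and 1567 with DESeq2. For 16 h against 8 h, median-centring gave 1410 higher and 1187 lower, ERCC scaling 4104 and 257, DESeq2 with ERCC size factors 4592 and 306, and edgeR and DESeq2 1326 and 1315 lower. For the genotype difference DESeq2 with ERCC size factors gave 1051 lower.

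Without a fold minimum the counts were 2739 higher and 5951 lower against CON, 3110 and 2398 for the genotype difference, 2320 and 5969 against Ex-4 and 5212 and 2615 for 16 h against 8 h, by construction of a looser rule. At a fold above 2 they were 573 and 1964, 239 and 174, 268 and 1340, and 772 and 184.

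Leaving out each library in turn gave 1127 to 1260 higher and 3491 to 3618 lower against CON, 720 to 857 and 601 to 734 for the genotype difference, 650 to 730 and 3002 to 3124 against Ex-4, and 2172 to 2232 and 599 to 725 for 16 h against 8 h. The lone library of an arm was then assumed to vary like the other groups. With the replicate block the main counts were 1188 and 3551. Deviations of same-numbered libraries correlated at −0.0804 in the main comparison and between −0.280 and 0.283 over 91 pairs of groups, 17 of them over 0.1. Whether same-numbered libraries have more than the number in common is not given in the labels.

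Of 313 named genes none turned direction while called. Median-centring ended 41 calls and added 5, ERCC scaling ended 15, edgeR ended 20 and added 5, and DESeq2 ended 25 and added 5. The cause of these shifts was not tested beyond the scaling that defines them. A filter of 5 TPM removed 16 of the 313.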

Other observations

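Among the 18 genes called in opposite directions in the genotypes, a few with clear levels are given here, chosen after their values were seen. Pdzrn3 had 10.01 and 9.91 TPM in CON and 1.56 and 1.59 TPM at 8 h of FSK in Med14 S983A, against 8.85 and 8.26 TPM and 38.7 and 39.4 TPM in WT, with log2 changes of −2.09 and 2.07. It codes for a ubiquitin ligase with PDZ domains. Efnb1 had 35.3 and 37.7 TPM in CON and 69.7 and 67.3 TPM at 8 h of FSK in Med14 S983A, against 37.98 and 35.6 TPM and 20.2 and 22.8 TPM in WT, with log2 changes of 0.89 and −0.75. Efnb1 is an ephrin, a ligand of the EphB receptors to which Ephb3 belongs. Gadd45a had 91.3 and 91.6 TPM in CON and 153 and 152 TPM at 8 h of FSK in Med14 S983A, against 80.6 and 84.5 TPM and 56.6 and 52.8 TPM in WT, with log2 changes of 0.73 and −0.59, and codes for a stress-induced growth arrest protein. The opposite calls of Pdzrn3 held under the 3 scalings. After median-centring the WT changes of Efnb1 (−0.36) and Gadd45a (−0.20) were not called, and with ERCC scaling that of Gadd45a (−0.57) was not.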
